A study of Homo sapiens with 76 samples.

Results

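TNFRSF17 is 1 of 61 genes read by quantitative RT-PCR in TK6 cells, a human lymphoblastoid B cell line. Its values are those of the row of the deposited cycle table that carries this symbol, a rule that uses no measured value. RefSeq (GRCh38.p14) lists it as a protein-coding gene with gene ID 608 and the synonyms BCMA and CD269. Its transcript was read once in each of 76 samples, which cover 29 treatments and 9 vehicles with 2 replicates of each.

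TNFRSF17 encodes B cell maturation antigen, a receptor of the tumour necrosis factor receptor superfamily that appears late in the B lineage and is kept on plasma cells. It binds the cytokines APRIL and BAFF, which also bind the related receptors TACI and, for BAFF, the BAFF receptor. Signals from it run through TRAF adaptors to NF-kB, and it helps long-lived plasma cells to survive in the bone marrow. Because myeloma cells carry it, it is the target of antibodies and engineered T cells used against multiple myeloma.

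The treatments were 28 reference agents of known action, ethanol at 2 doses among them, and every sample is labelled 4 h. DNA damage-inducing (DDI) agents gave 14 treatments: cisplatin at 80 uM, the methylating agent methyl methanesulfonate (MMS) at 40 ug/ml, camptothecin at 125 nM, etoposide at 200 nM, 5-FU at 25 ug/ml, methotrexate at 100 uM, AraC at 50 uM, hydroxyurea at 0.5 mM, gamma ray at 4 Gy, bleomycin at 10 ug/ml, H2O2 at 80 uM, CdCl2 at 50 uM, K2CrO4 at 100 uM and NaAsO2 at 20 uM. Agents not held to damage DNA (non-DDI) gave 15: colchicine at 250 ng/ml, vinblastine at 200 ng/ml, docetaxel and paclitaxel at 50 nM each, trichostatin A at 20 ng/ml, apicidin at 1 ug/ml, HC toxin at 20 ng/ml, oxamflatin at 1 uM, tunicamycin at 2.5 ug/ml, thapsigargin at 250 nM, 2-DG at 20 uM, antimycin A at 100 uM, heat shock at 47 °C and ethanol (EtOH) at 2% and 4%. The vehicles were DMSO (10 treatments), H2O (7), medium (4), EtOH (3), and acetonitrile, MeOH, NaOH, a second H2O kept for NaAsO2 and a second MeOH kept for MMS (1 treatment each). The study lists the heat shock as lasting 20 min. All values come from 1 cell line, and exposures were made on 2 separate occasions. The panel holds none of the B cell markers MS4A1, CD79A, CD79B, PAX5 and CD22, so the B cell label could not be checked from these data.

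Quantification cycles (Cq) of TNFRSF17 ran between 26.91 and 30.12 with a mean of 28.18, and the mean Cq of the reference genes HPRT and GUSB lay between 22.97 and 24.49. Levels are given below as minus delta Cq, the mean reference Cq minus the TNFRSF17 Cq. This is a log2 scale on which a value closer to 0 means more transcript, and differences on it are log2 fold changes. The spread between replicates (pooled SD) was 0.22, beside a median of 0.20 over the 61 genes. Cisplatin stood apart, with -5.21 in replicate 1 and -3.97 in replicate 2 (SD 0.88), while the next widest pair had an SD of 0.42.

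Some cycle values recur between samples. The EtOH and acetonitrile vehicles held the same Cq to the last digit for 50 of 61 genes in each replicate, TNFRSF17 included, at 27.10 in replicate 1 and 27.20 in replicate 2. Replicate 1 of the MeOH vehicle shared 19 values with each of them, again with 27.10 for TNFRSF17. Cisplatin replicate 1 and colchicine replicate 1 shared 12 values, among them 29.16 for TNFRSF17. The DMSO and medium vehicles shared 11 values in replicate 2, TNFRSF17 not among them, and no other pair shared more than 4. For treatments that were called, values without the samples sharing TNFRSF17 and 10 or more values are given below where they can be had. Other values against all vehicles, and those of vehicles against each other, also rest on these samples and are not given without them.

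Over the 38 conditions the level spanned 3.06 cycles. It was lowest in apicidin, at -6.41 and -6.52, followed by oxamflatin at -6.07 and -6.25 and vinblastine at -6.06 and -5.87. These 3 non-DDI agents lay below every vehicle mean. At the other end stood the acetonitrile vehicle at -3.14 and -3.68, gamma ray at -3.43 and -3.59 and thapsigargin at -3.43 and -3.68. The largest gap between neighbours in the order was 0.31, and none of the 37 neighbouring pairs differed beyond its spread (limma, adjusted p = 0.991 for each), which sorting by the measured level makes likely at an SE of 0.22.

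**Figure D1:**
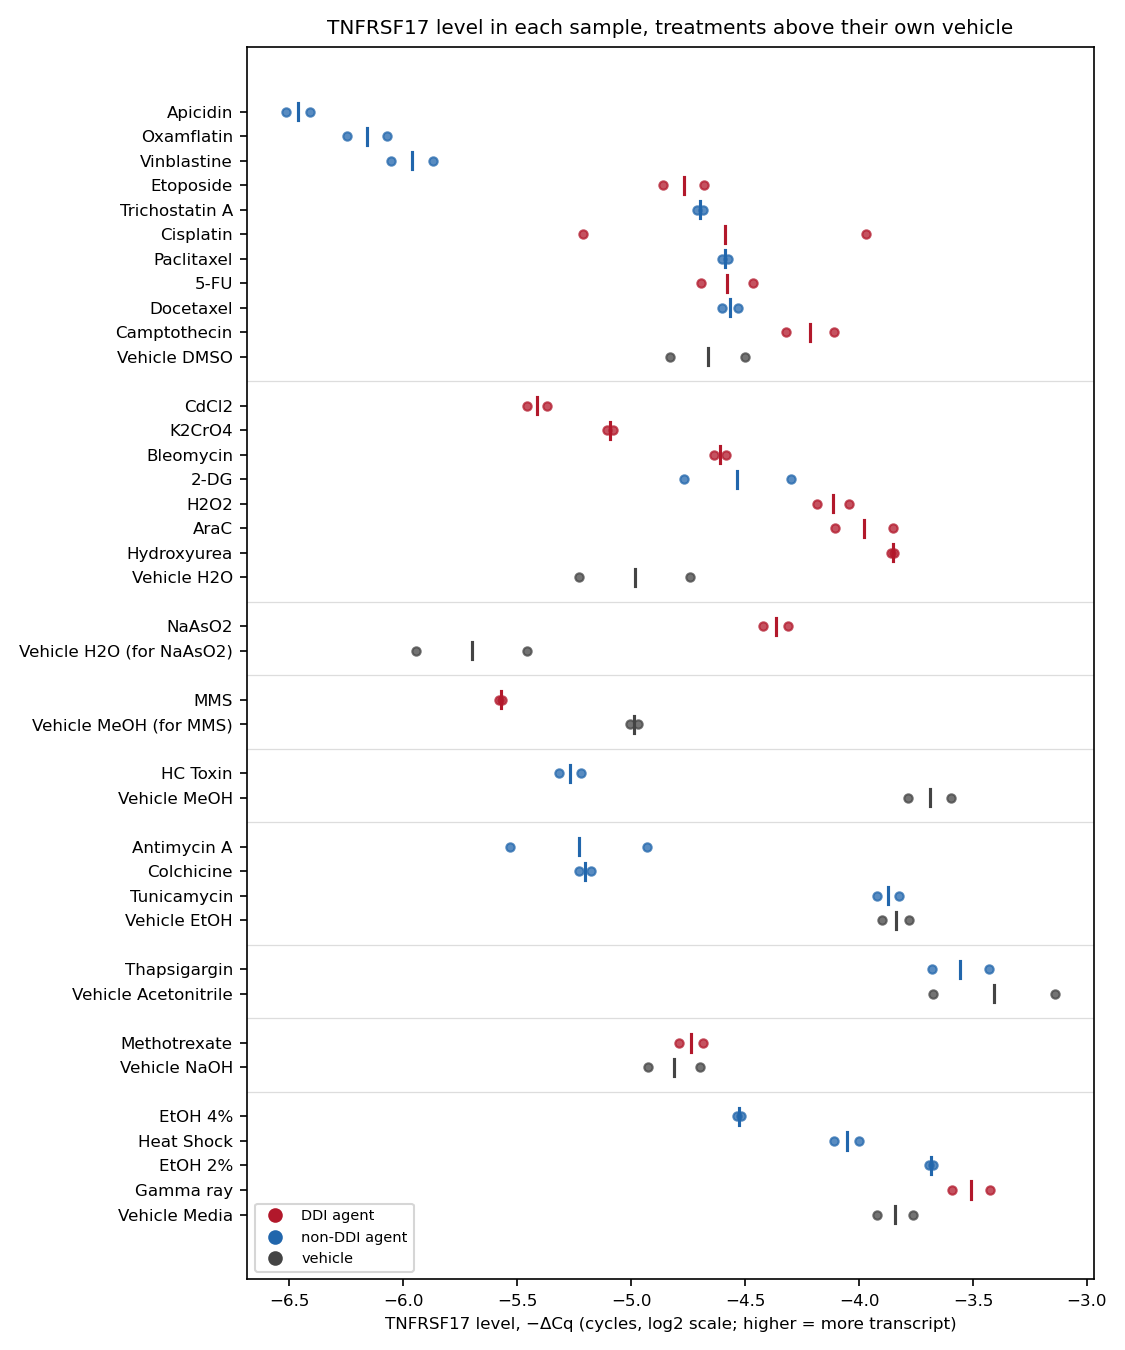
TNFRSF17 level (minus delta Cq, horizontal axis) in each of the 76 samples, with treatments above their own vehicle in blocks and a tick at the mean of each pair. Apicidin and oxamflatin lie far left of DMSO, HC toxin far left of MeOH, and the 9 vehicle means themselves run between -5.70 and -3.41.

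The vehicles differed among themselves nearly as much as the treatments did. Their means averaged -4.44 ± 0.77 (SD, n = 9) and spanned 2.29 cycles, beside 2.96 for the treated conditions and a median vehicle span of 1.21 over the panel genes. Lowest was the H2O vehicle kept for NaAsO2 (-5.95 and -5.46), then the MeOH kept for MMS (-5.01 and -4.97), H2O (-5.23 and -4.74), NaOH (-4.70 and -4.93) and DMSO (-4.83 and -4.50). Higher levels were read in medium (-3.92 and -3.77), EtOH (-3.78 and -3.90), MeOH (-3.79 and -3.60) and acetonitrile (-3.14 and -3.68). Each vehicle was set against the mean of the other 8 in the fit of all 76 samples.

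Against the other vehicles, TNFRSF17 was higher in acetonitrile by 1.16, in MeOH by 0.84, in EtOH by 0.67 and in medium by 0.67 on the log2 scale, which are 4 calls beside 13.1% of all gene and vehicle pairs called higher. It was lower in the H2O for NaAsO2 (-1.42), the MeOH for MMS (-0.62) and H2O (-0.62), beside 15.3% of pairs called lower. The shares differed by vehicle. Of the 61 genes, 23 were higher in acetonitrile, 1 in MeOH, 2 in EtOH and 3 in medium. Called lower were 28 in the H2O for NaAsO2, 6 in the MeOH for MMS and 34 in H2O. The panel median in H2O was -0.62, so TNFRSF17 lay at the shift of the whole panel there. DMSO (-0.26) and NaOH (-0.42, adjusted p = 0.0860) did not pass the limma test. The call for H2O did not hold with the panel median in place of the reference genes (-0.01, adjusted p = 0.956) or without its replicate 1 (-0.37, adjusted p = 0.158). The call for EtOH was lost without its replicate 1 (0.61, adjusted p = 0.123), and that for medium without its replicate 2 (0.59, adjusted p = 0.121). The medium call was also lost with GUSB alone (0.50, adjusted p = 0.0539) and with the panel median (0.50, adjusted p = 0.0951). Among the 4 higher vehicles, EtOH, acetonitrile and MeOH share cycle values that include TNFRSF17, and medium shares values that do not. Since the TNFRSF17 Cq is the same in acetonitrile and EtOH, their difference in level lies in the reference mean alone. It was 23.96 and 23.525 in acetonitrile, against 23.32 and 23.30 in EtOH.

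Vehicles of the same solvent differed too. The H2O kept for NaAsO2 was below the other H2O, with a log2 difference of -0.72 (SE 0.22, adjusted p = 0.00479, limma), where 27.9% of the panel was called lower. The MeOH kept for MMS was below the other MeOH, with a log2 difference of -1.30 (SE 0.22, adjusted p = 5.1e-06), where 8.2% of the panel was called lower. A treatment's fold change therefore moves with the vehicle it is set against, and both comparisons are given below: against its own vehicle (SE 0.22) and against the mean of the 9 vehicles (SE 0.16). These 2 comparisons use the same treated samples and share the vehicle's own samples.

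Against their own vehicles, 4 treatments had more TNFRSF17 transcript, 8 had less and 17 did not pass the threshold of 0.05 (limma, Benjamini-Hochberg over the 61 genes). The 4 higher treatments were all DDI agents, and 7 of the 8 lower ones were non-DDI. All 4 higher treatments had H2O as vehicle, and both H2O vehicles were themselves called lower than the other vehicles. AraC, hydroxyurea and H2O2 share the same H2O samples, and the only non-DDI treatment in H2O was 2-DG. Class and vehicle can therefore not be told apart in the higher calls. Of the lower non-DDI treatments, only apicidin, oxamflatin and vinblastine had a vehicle, DMSO, that was not called higher than the others. Higher calls leaned to DDI treatments in the panel too. Of the 61 genes, 1 (methotrexate) to 41 (hydroxyurea) were higher in a DDI treatment, and 0 (docetaxel) to 22 (2-DG) in a non-DDI treatment. Lower calls ran from 3 (methotrexate) to 19 (CdCl2) in DDI and from 0 (docetaxel) to 21 (thapsigargin) in non-DDI treatments. Over all genes and treatments, 29.8% of tests were called higher and 13.5% lower, so that for TNFRSF17 the calls lean to the lower side while for the panel they lean to the higher side. Against the mean of all vehicles, 6 treatments were higher, 9 were lower and 14 were not called, beside 31.2% of all tests called higher and 16.2% called lower. Of the 61 genes, 39 were higher in AraC and in hydroxyurea, 34 in gamma ray, 13 in tunicamycin and in thapsigargin and 23 in EtOH 2%. Called lower were 41 in CdCl2, 18 in MMS, 17 in antimycin A, 15 in HC toxin and 14 in apicidin. Oxamflatin had 11 lower, vinblastine 4, and colchicine and K2CrO4 3 each. Without the samples sharing TNFRSF17 and 10 or more values, the log2 differences were 0.68 for AraC, 0.80 for hydroxyurea and 1.15 for gamma ray. Among the lower calls they were -0.92 for MMS, -0.76 for CdCl2, -0.44 for K2CrO4, -1.31 for vinblastine, -1.81 for apicidin and -1.50 for oxamflatin. The removal takes the EtOH and acetonitrile vehicles, both called higher than the others, out of the mean. This lowers the mean and raises all of these values alike. The values with all samples, and those of the other called treatments, are given below. On the panel median the split was 1 higher and 10 lower against own vehicle, and 4 higher and 13 lower against all vehicles.

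**Figure D2:**
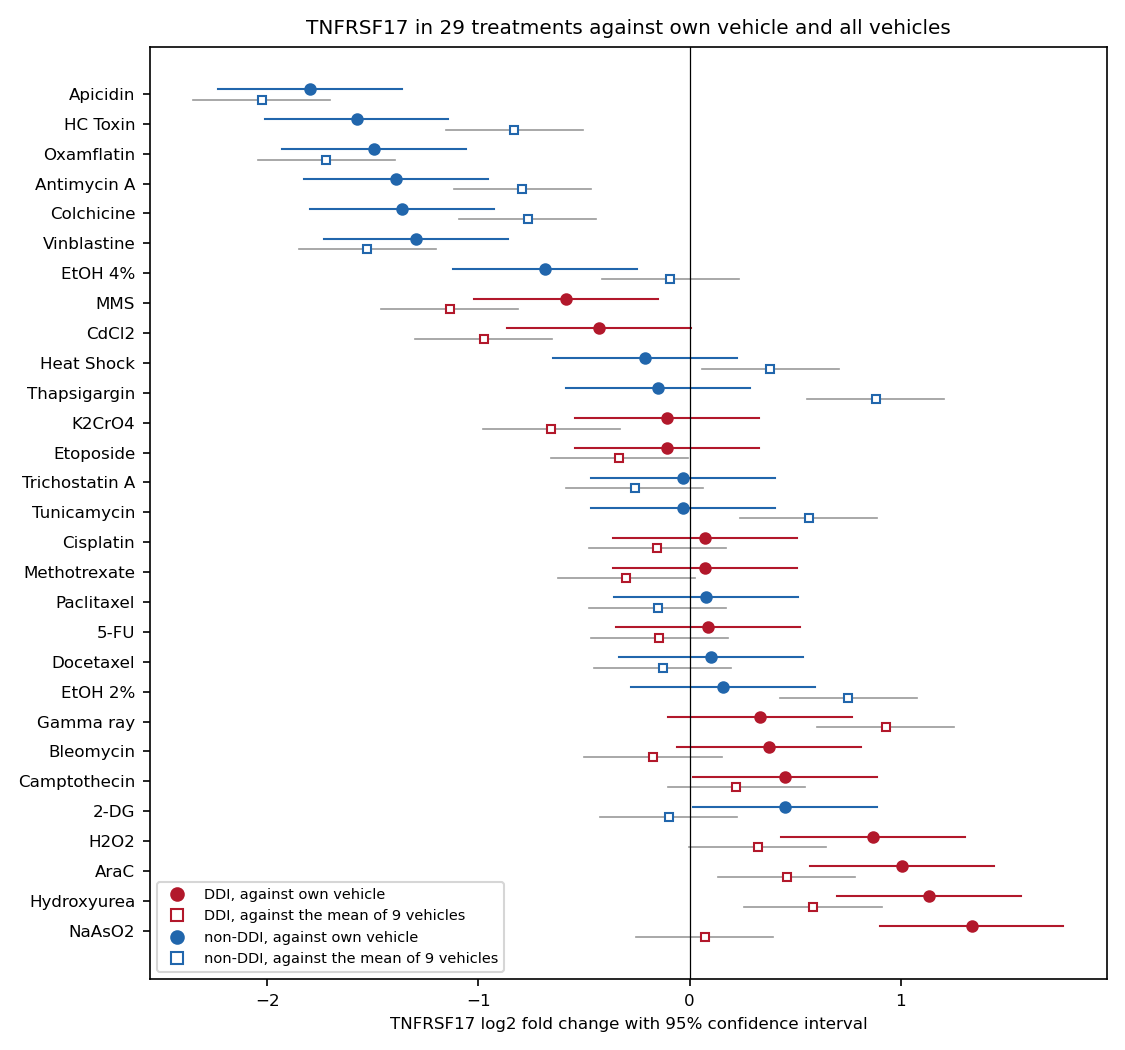
TNFRSF17 log2 fold change (horizontal axis, with 95% confidence intervals) of the 29 treatments against their own vehicle (filled circles) and against the mean of 9 vehicles (open squares), coloured by class. Apicidin is lowest on both (-1.80 and -2.03), while NaAsO2 is highest against its own vehicle (1.34) and near 0 against all vehicles (0.07).

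The largest decreases came with histone deacetylase inhibitors, compounds that block the removal of acetyl groups from histones and other proteins. Apicidin had Cq values of 29.69 and 30.12 for TNFRSF17, against 28.07 and 27.87 in DMSO, with reference means of 23.28 and 23.61 in apicidin and 23.24 and 23.37 in DMSO. The levels were thus -6.41 and -6.52 in apicidin, against -4.83 and -4.50 in DMSO, without overlap. The log2 fold change was -1.80 (95% confidence interval -2.23 to -1.36, adjusted p = 1.7e-09, limma), or 0.288 times the vehicle. In apicidin 23% of the panel was called lower, and TNFRSF17 had the third lowest fold change of the 61 genes.

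Oxamflatin, a hydroxamate inhibitor, gave -6.07 and -6.25, against the same DMSO samples. Its log2 fold change was -1.49 (-1.93 to -1.06, adjusted p = 1.7e-07), with 19.7% of the panel called lower. HC toxin, a cyclic tetrapeptide as apicidin is, gave -5.22 and -5.32, against -3.79 and -3.60 in MeOH, a log2 fold change of -1.58 (-2.01 to -1.14, adjusted p = 3.4e-08) with 19.7% of the panel called lower. Both pairs were clear of their vehicle samples.

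The HC toxin value changed with the vehicle it was set against. Without the MeOH replicate that shares cycle values, its log2 fold change was -1.67 (adjusted p = 1.8e-08), but against the MeOH kept for MMS it was -0.28 (-0.72 to 0.16, adjusted p = 0.279). Against all vehicles it was -0.83 (adjusted p = 2.7e-05, and -0.61 without the samples sharing cycle values), beside -2.03 for apicidin and -1.72 for oxamflatin.

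Trichostatin A, a hydroxamate like oxamflatin, showed no such decrease at its dose. Its levels were -4.69 and -4.71, which lie between the DMSO values of -4.83 and -4.50. The log2 fold change was -0.03 (-0.47 to 0.40, adjusted p = 0.994), and against all vehicles it was -0.26 (adjusted p = 0.432). The first interval excludes changes of the size seen with the other 3 inhibitors against their own vehicles. It does not exclude the HC toxin value against the MeOH kept for MMS (-0.28). In trichostatin A only 1 of the 61 genes was called lower and 0 higher, whereas 12 to 14 were lower and 13 higher with each of the others. The 4 inhibitors were given at different doses, so they were not tested against each other.

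Antimitotic agents fell into unlike pairs. Vinblastine and colchicine keep tubulin from polymerising, whereas docetaxel and paclitaxel stabilise microtubules. Vinblastine gave -6.06 and -5.87, against -4.83 and -4.50 in DMSO, a log2 fold change of -1.30 (-1.73 to -0.86, adjusted p = 1.3e-05) where 8.2% of the panel was called lower. TNFRSF17 had the second lowest fold change of the 61 genes here, and the lowest against all vehicles (-1.53, adjusted p = 4.4e-10).

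Colchicine gave -5.23 and -5.18, against -3.78 and -3.90 in EtOH, and the groups did not overlap. The log2 fold change was -1.36 (-1.80 to -0.93, adjusted p = 4.8e-06), the lowest of all 61 genes, in a treatment where 6.56% of the panel was called lower. Colchicine replicate 1 and both EtOH samples are among those with repeated cycle values, and without them no value against EtOH can be had. Against all vehicles the value was -0.77 (adjusted p = 3.7e-04), again the lowest of the panel, and without those samples it was -0.52 (adjusted p = 0.0532).

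Docetaxel gave -4.60 and -4.53 and paclitaxel -4.60 and -4.58, all within the range of the DMSO samples. Their log2 fold changes were 0.10 (-0.34 to 0.54) for docetaxel and 0.08 (-0.36 to 0.51) for paclitaxel. These taxanes share a ring skeleton and differ in their side chain and in an acetyl group, and were given at the same dose in the same vehicle. Their direct difference, docetaxel minus paclitaxel, was 0.02 (-0.41 to 0.46, adjusted p = 0.991, limma, 1 compound pair compared), so a difference of more than 0.46 in either direction lies outside the interval. Vinblastine and colchicine were given by weight and the taxanes in nM, and no test was made between them.

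**Figure D3:**
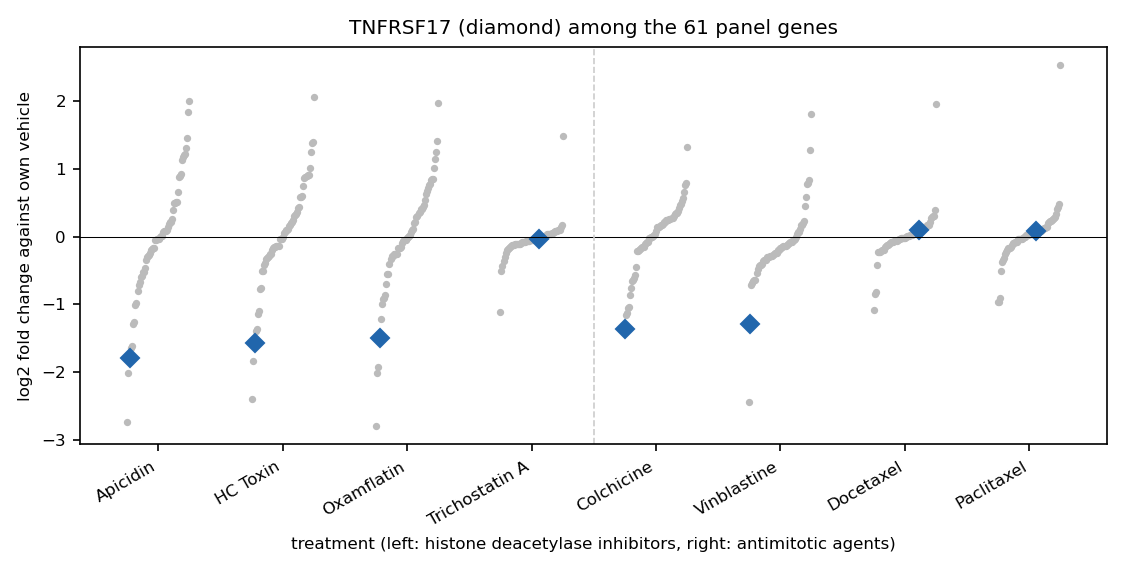
Log2 fold change against own vehicle (vertical axis) of the 61 panel genes, sorted within each of 8 treatments, with TNFRSF17 as a diamond. TNFRSF17 sits at or near the bottom in apicidin, HC toxin, oxamflatin, colchicine and vinblastine, and near 0 in trichostatin A (-0.03), docetaxel (0.10) and paclitaxel (0.08).

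Among the other non-DDI agents, antimycin A, which blocks complex III of the respiratory chain, lowered TNFRSF17. The levels were -4.93 and -5.53, against -3.78 and -3.90 in EtOH, without overlap. The log2 fold change was -1.39 (-1.83 to -0.95, adjusted p = 9.0e-07) where 9.84% of the panel was called lower, and against all vehicles it was -0.79 (adjusted p = 1.2e-04), though without antimycin A replicate 2 this became -0.49 (adjusted p = 0.0692). Both EtOH samples share cycle values with acetonitrile, and no value against EtOH remains without them. Against all vehicles the value without the sharing samples was -0.57 (adjusted p = 3.2e-04). The glycolysis inhibitor 2-DG gave -4.30 and -4.77, against -5.23 and -4.74 in H2O. It was not called against that vehicle (0.45, adjusted p = 0.0775) or against all (-0.10).

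Both agents that disturb the endoplasmic reticulum left TNFRSF17 close to its level in their own vehicles. Tunicamycin, an inhibitor of N-glycosylation, gave -3.92 and -3.83, against -3.78 and -3.90 in EtOH (log2 fold change -0.03, -0.47 to 0.40). Thapsigargin, an inhibitor of the calcium pump of that compartment, gave -3.43 and -3.68, against -3.14 and -3.68 in acetonitrile (-0.15, -0.58 to 0.29). Against all vehicles both were called higher, tunicamycin by 0.56 (adjusted p = 0.00398) and thapsigargin by 0.88 (adjusted p = 1.3e-05). Their own vehicles, EtOH and acetonitrile, were themselves above the other vehicles and are the pair that shares 50 cycle values. Without the sharing samples the values were 0.78 for tunicamycin and 1.10 for thapsigargin. That removal takes these high vehicles out of the mean, so every treatment whose own samples stay rises alike. The larger values are thus set by the removal and are no result about these agents. Without tunicamycin replicate 2 the value against all vehicles was 0.52 (adjusted p = 0.0609).

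Ethanol itself was given as an agent at 2 doses and set against medium. EtOH 4% gave -4.54 and -4.52, EtOH 2% gave -3.70 and -3.68, and medium gave -3.92 and -3.77. The 4% dose was lower than medium, with a log2 fold change of -0.69 (-1.12 to -0.25, adjusted p = 0.0144) where 14.8% of the panel was called lower, while the 2% dose was not called (0.16, adjusted p = 0.651). The doses differed from each other by -0.84 (4% minus 2%, SE 0.22, adjusted p = 0.00211), where 16.4% of the panel was called lower at 4%. Against all vehicles EtOH 2% was higher by 0.75 (adjusted p = 1.1e-04, and 0.97 without the samples sharing cycle values) and EtOH 4% was near 0 (-0.09). The call of EtOH 4% against medium did not hold without any 1 of 3 samples (either EtOH 4% replicate or medium replicate 2), with adjusted p between 0.0583 and 0.110. Heat shock gave -4.00 and -4.11 and was not called against medium (-0.21, adjusted p = 0.935).

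In the DDI class the antimetabolites split against their own vehicles. The agents called had H2O as vehicle and the others NaOH or DMSO, so agent and vehicle cannot be told apart. AraC, a cytidine analogue that blocks chain elongation, gave -3.85 and -4.11, and hydroxyurea, which inhibits ribonucleotide reductase, gave -3.86 and -3.85, against -5.23 and -4.74 in H2O. Neither pair overlapped with its vehicle. Hydroxyurea had a log2 fold change of 1.13 (0.70 to 1.57, adjusted p = 8.4e-06), or 2.19 times the vehicle, with 67.2% of the panel called higher. AraC had 1.01 (0.57 to 1.44, adjusted p = 4.7e-05), with 65.6% of the panel called higher.

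The panel as a whole rose in these treatments, with a median log2 fold change of 1.21 in hydroxyurea and 1.27 in AraC, and TNFRSF17 lay below that median in both. Scaled to the panel median instead of HPRT and GUSB, its change was 0.32 in hydroxyurea (adjusted p = 0.246) and 0.02 in AraC (adjusted p = 0.953). Against all vehicles it was 0.58 for hydroxyurea (adjusted p = 0.00112) and 0.46 for AraC (adjusted p = 0.00819), but on the panel median these became 0.30 (adjusted p = 0.135) for hydroxyurea and 0.01 (adjusted p = 0.970) for AraC. The AraC call against all vehicles was also lost with GUSB alone (0.31, adjusted p = 0.0948) and without AraC replicate 1 (0.33, adjusted p = 0.163). Methotrexate, an inhibitor of dihydrofolate reductase, gave -4.69 and -4.79, against -4.70 and -4.93 in NaOH (0.08, -0.36 to 0.51). 5-FU, which blocks thymidylate synthase, gave -4.47 and -4.70, against -4.83 and -4.50 in DMSO (0.09, -0.35 to 0.52).

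Agents that break DNA strands gave 1 call. H2O2 gave -4.19 and -4.05, against -5.23 and -4.74 in H2O, a log2 fold change of 0.87 (0.43 to 1.31, adjusted p = 4.3e-04) where 55.7% of the panel was called higher. The value was 0.15 (adjusted p = 0.630) on the panel median and 0.32 (adjusted p = 0.0739) against all vehicles. Bleomycin gave -4.64 and -4.59 and was not called against H2O (0.38, adjusted p = 0.118). Gamma ray gave -3.43 and -3.59, against -3.92 and -3.77 in medium, and was not called (0.34, adjusted p = 0.174). Against all vehicles it was called higher (0.93, adjusted p = 1.7e-06), as was its own vehicle against the other 8, and on the panel median it was 0.43 (adjusted p = 0.0436).

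Of the 3 metal compounds, 1 was called against its own vehicle. NaAsO2 gave -4.42 and -4.31, against -5.95 and -5.46 in the H2O kept for it, the largest increase of the 29 treatments (1.34, 0.90 to 1.77, adjusted p = 9.7e-07), with 57.4% of the panel called higher. That vehicle was the lowest of the 9. Against the other H2O the value was 0.62 (0.18 to 1.06, adjusted p = 0.0130), where 50.8% of the panel was called higher, and against all vehicles it was 0.07 (adjusted p = 0.787). The GUSB Cq was 24.81 and 25.24 in NaAsO2, against 23.72 and 24.30 in its vehicle, and with HPRT alone the log2 fold change was 0.96 (adjusted p = 5.7e-04).

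CdCl2 gave -5.37 and -5.46, and K2CrO4 gave -5.08 and -5.11, against -5.23 and -4.74 in H2O. Neither was called against H2O, with -0.43 (adjusted p = 0.0919) for CdCl2 and -0.11 (adjusted p = 0.676) for K2CrO4. Both were called lower against all vehicles, CdCl2 by -0.98 (adjusted p = 1.8e-06) and K2CrO4 by -0.66 (adjusted p = 0.00623), and their vehicle was itself lower than the others. In that comparison 41 of the 61 panel genes were lower in CdCl2 (panel median -0.54) and 3 in K2CrO4. On the panel median the CdCl2 value was -0.52 (adjusted p = 0.0210). Leaving out either K2CrO4 replicate took that call away (adjusted p = 0.140 and 0.134).

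Set against the second H2O, 3 treatments that were not called against the first became so. These were bleomycin (1.09, adjusted p = 2.8e-05, with 59% of the panel called higher), K2CrO4 (0.61, adjusted p = 0.0284, with 34.4%) and 2-DG (1.17, adjusted p = 9.5e-05, with 13.1%). CdCl2 changed sign and was not called (0.29, adjusted p = 0.305).

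Of the alkylating and crosslinking agents, MMS gave -5.57 and -5.58, against -5.01 and -4.97 in its MeOH, the only decrease among the DDI agents to pass the test against own vehicle (-0.59, -1.02 to -0.15, adjusted p = 0.0180), with 21.3% of the panel called lower. Against the other MeOH the value was -1.88 (adjusted p = 4.0e-10), where 26.2% of the panel was called lower, and against all vehicles it was -1.14 (adjusted p = 3.0e-08). Leaving out any 1 of the 4 MMS and vehicle samples moved the adjusted p to between 0.0535 and 0.0628. Cisplatin, whose replicates disagreed, gave -5.21 and -3.97, against -4.83 and -4.50 in DMSO (0.08, adjusted p = 0.809). Its replicate 1 is the sample that shares 12 cycle values, TNFRSF17 included, with colchicine replicate 1. By replicate number the differences from DMSO were -0.38 and 0.53, so the mean near 0 rests on that sample. The topoisomerase I poison camptothecin gave -4.11 and -4.32 (0.45, adjusted p = 0.0613), and the topoisomerase II poison etoposide gave -4.68 and -4.86 (-0.11, adjusted p = 0.685), both against DMSO.

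The classes were then compared over the mean log2 fold change of each treatment against its own vehicle. DDI treatments averaged 0.32 ± 0.58 (SD, n = 14) with 10 of them above 0, and non-DDI treatments averaged -0.62 ± 0.78 (SD, n = 15) with 4 above 0. The classes overlapped, since the DDI range ran between -0.59 and 1.34 and the non-DDI range between -1.80 and 0.45. The difference was 0.94 (DDI minus non-DDI, SE 0.25, 95% confidence interval 0.43 to 1.45, adjusted p = 0.00132, limma over 61 genes; two-sided permutation test of the class labels, p = 0.0011), and 57.4% of the panel was called higher in DDI. The panel had been selected in earlier work with these agents for separating the classes, so this difference is not independent evidence, and treatments that share a vehicle share its error.

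The class difference depended on the scaling and on the vehicle. It was 0.43 on the panel median (adjusted p = 0.0923), 0.63 when solvent entered the model as a block (adjusted p = 0.0755), and 0.95 without the samples sharing cycle values (adjusted p = 0.00416, 25 treatments). The panel genes had a median class difference of 0.60 themselves. The panel median is thus no neutral reference for the classes, and a smaller value on it was to be had in advance. Against the mean of all vehicles, DDI treatments averaged -0.09 ± 0.58 (n = 14) and non-DDI treatments -0.39 ± 0.89 (n = 15, both SD), with 6 and 4 above 0. The difference was then 0.30 (adjusted p = 0.289, limma; permutation p = 0.303).

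**Figure D4:**
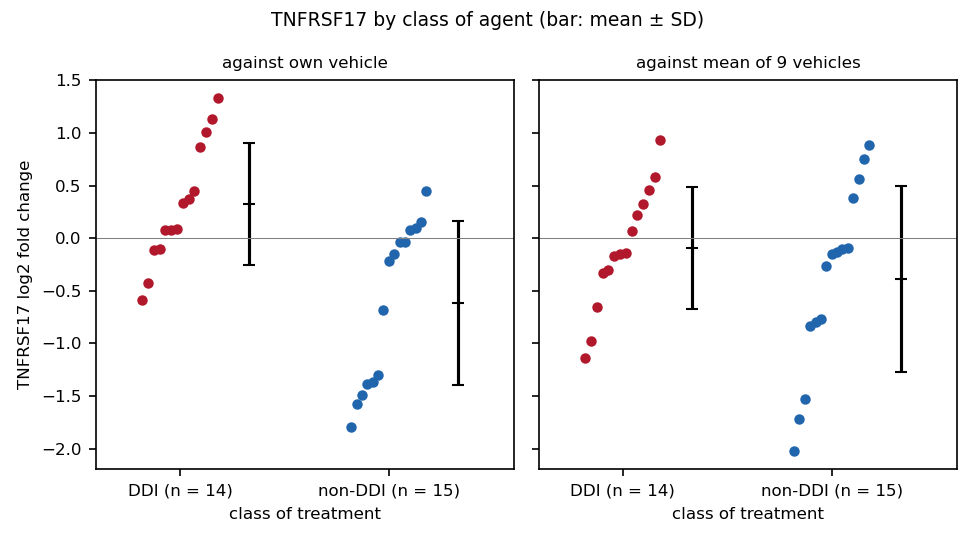
TNFRSF17 log2 fold change (vertical axis) of each treatment by class, against own vehicle (left) and against the mean of 9 vehicles (right), with mean and SD as a black bar. Against own vehicle the DDI mean is 0.32 and the non-DDI mean -0.62, and against all vehicles the means are -0.09 and -0.39.

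Panel genes with the most similar pattern were then looked up. Across the 38 condition means, Pearson's r with TNFRSF17 was highest for TRIM22 (0.45), an interferon-induced antiviral protein that p53 also induces, and next for COIL (0.43), the Cajal body protein coilin, FAM123B (0.42), a scaffold of the Wnt pathway, the transcription factor CEBPD (0.41) and the AMPK subunit PRKAB2 (0.40). For COIL the rank correlation was 0.02 and for CEBPD 0.17. The lowest were PTGER4 (-0.43), a prostaglandin E2 receptor, RAPGEF2 (-0.42), an exchange factor for Rap proteins, and ID2 (-0.36), an inhibitor of helix-loop-helix factors. The median over the panel was 0.21.

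Across the 29 log2 fold changes against own vehicle, r was highest for BLOC1S2 (0.79), a subunit of a complex that shapes lysosome-related organelles, TRIM22 (0.79), the p53-induced nuclease AEN (0.77), PHLDA3 (0.76), a p53-induced repressor of Akt, and the decapping factor DCP1B (0.76). It was lowest for PTGER4 (-0.61), RAPGEF2 (-0.53) and ID2 (-0.49), with a panel median of 0.46. All genes share the same reference cycles and vehicle samples, which enter every point, so these correlations are a description only.

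The partners of the receptor could not be followed, because its ligands TNFSF13 and TNFSF13B, the related receptors TNFRSF13B and TNFRSF13C, the TRAF adaptors, the NF-kB subunits NFKB1 and NFKB2, MCL1 and the plasma cell factors XBP1, PRDM1 and IRF4 are not on the panel. The 21 p53 targets of the panel serve as a gauge of the damage response. In hydroxyurea and AraC all 21 were called higher, beside 41 and 40 of the 61 genes, with median log2 fold changes of 2.37 and 2.50, above both TNFRSF17 and the panel. In MMS, 17 of 21 were called higher and 0 lower (median 0.88, panel 0.27), beside 26 and 13 of the 61 genes, while TNFRSF17 fell by 0.59.

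With etoposide and 5-FU, 20 and 21 of these targets were called higher, beside 30 and 33 of the 61 panel genes, while TNFRSF17 was not called. In apicidin, 4 of the targets were called higher and 5 lower (median -0.05, panel -0.04), beside 13 and 14 of the 61 genes. HC toxin had 4 higher and 4 lower (median -0.13, panel -0.01), beside 13 and 12 of the 61. Oxamflatin had 4 higher and 3 lower (median -0.09, panel -0.03), also beside 13 and 12. There was 1 higher and 0 lower in both vinblastine (median -0.24, panel -0.17) and colchicine (median 0.17, panel 0.08), beside 6 and 5 of the 61 genes in vinblastine and 7 and 4 in colchicine. The 8 immune and lymphocyte genes listed from the panel were CBLB, ID2, IKBIP, ITPKC, ITPR1, NLRX1, PTGER4 and TRIM22. IKBIP and TRIM22 are also among the p53 targets. Of the 8, 3 were called higher and 1 lower in apicidin (median 0.21, panel -0.04), where 13 of all 61 genes were higher and 14 lower. In vinblastine 2 were higher and 0 lower (median 0.08, panel -0.17), beside 6 and 5 of the 61, and in NaAsO2 6 were higher and 1 lower (median 0.71, panel 0.69), beside 35 and 4. Tunicamycin had 5 higher and 0 lower, beside 11 and 6 of the 61. AraC, hydroxyurea and H2O2 each had 3 higher and 4 lower, beside 40 and 10, 41 and 9, and 34 and 11.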

How the data were processed

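The deposited table holds raw Cq values, in cycles, for 76 samples. Per the labels and the study's methods, the authors isolated RNA, made cDNA and ran TaqMan assays on custom multi-well arrays for 40 cycles, and left out panel genes that were not detected in most samples. The threshold software is not given in the sources used here. A second deposited table holds the authors' own fold changes and was not used. Because each gene and sample has a single Cq, no counting depth exists.

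Minus delta Cq was the mean Cq of HPRT and GUSB minus the Cq of each of 61 genes, which assumes full amplification efficiency. All 76 samples were fitted in limma 3.58.1 (R 4.3.3) with 1 coefficient for each of 38 conditions (38 residual degrees of freedom) and empirical Bayes moderation. The Benjamini-Hochberg adjustment ran across all 61 genes of a comparison, or across the 37 neighbouring pairs of the order, and the threshold was 0.05. An exact permutation test of 2 against 2 samples cannot go below p = 0.333. Class labels were permuted 100000 times (scipy 1.17.1). Related genes were named as the 5 highest and 3 lowest Pearson correlations. The scripts were tested on simulated data. Alternatives covered the reference genes, the vehicle, left-out replicates, a replicate block and samples with repeated Cq values.

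The gene, the lists and the tests were chosen with earlier results of these data known. Samples with the same replicate number were not paired in the main fit. Their deviations from the condition means correlated above 0.1 in 19 of 29 treatment and vehicle pairs (median 0.24, range -0.72 to 0.91), and nothing in the labels ties them.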

Additional observations from a re-analysis of the deposited data

How the results depend on the processing

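The decreases with apicidin, oxamflatin, vinblastine, antimycin A and colchicine against own vehicle kept their direction and passed the threshold under all alternatives that could be run. Their log2 fold changes ran between -2.05 and -1.57 for apicidin, -1.75 and -1.31 for oxamflatin, -1.55 and -1.02 for vinblastine, -1.69 and -0.72 for antimycin A, and -1.44 and -0.69 for colchicine. For antimycin A and colchicine the removals of repeated Cq values could not be run, because no EtOH sample remains. Their decreases against own vehicle are thus not shown to hold without those samples. The number of treatments higher than own vehicle, 4 in the main setting, was 7 with HPRT alone and 1 with the panel median as reference. It was 8 of 25 without samples sharing 10 or more Cq values, an alternative chosen after seeing the data, as was the other vehicle of the same solvent. Leaving out replicates gave 4 to 7 higher and 6 to 8 lower treatments, and 5 of 25 were lower without samples of equal TNFRSF17 Cq. Against all vehicles, 11 treatments were higher in place of 6 under both removals of repeated values. Both take the EtOH and acetonitrile vehicles, called higher than the others, out of the mean and so lower it. With the other 8 vehicles in place of its own, NaAsO2 changed sign (-0.0863, adjusted p = 0.728). Docetaxel minus paclitaxel changed sign with HPRT alone (-0.055) and with the panel median (-0.12), and ran between -0.0125 and 0.0575 when single replicates were left out. The class difference was no longer called with the panel median (0.43, adjusted p = 0.0923), against all vehicles (0.30, adjusted p = 0.289), when solvent entered the model as a block (0.63, adjusted p = 0.0755) or within DMSO (0.87, adjusted p = 0.0810, 10 treatments), and ran between 0.85 and 1.01 when single treatments were left out. The panel median takes out the panel's own class difference (median 0.60). With a replicate block the counts stayed at 4 higher and 8 lower against own vehicle and 6 and 9 against all vehicles. The block gave 0.02 for docetaxel minus paclitaxel and -0.84 for EtOH 4% minus 2% (adjusted p = 0.00243), and changed none of these calls. The causes were not tested. With 2 samples a condition, the SE of a fold change against own vehicle was 0.22.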
